A study of Mus musculus with 34 samples.

Results

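The Glo1 locus on mouse chromosome 17 was described here as all regions that start within the window of about 1100 kb around Glo1 that ends at base 31000000 of GRCm38. The first region of the window began at base 29909141. In the list of regions shared by both H3K9me3 tables and by the H3K27ac table of repeated libraries, 194 of 248336 regions met this rule. In the separate region list of the H3K27ac table of independent lines, 59 of 96988 did. The locus holds Glo1, Btbd9, Dnah8 and Glp1r, with Zfand3 upstream and Umodl1 downstream. Histone marks were profiled by chromatin immunoprecipitation and sequencing (ChIP-seq) in mouse embryonic stem cells, with chromatin cut by micrococcal nuclease and reads of 75 bp.

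The groups were C57BL/6J (B6), DBA/2J (D2) and a pair of congenic genotypes. B6-13D2 is B6.D2-(rs30079041-rs51756099)/Bakr and carries a D2 segment of chromosome 13 on B6. D2-13B6 is the reciprocal, a B6 segment of chromosome 13 on D2, and its end markers differ between the series text and the sample labels. Going by these names, chromosome 17 is of the background strain in both congenic lines, so B6-13D2 is grouped with B6 and D2-13B6 with D2 below. Cells of every group were grown with fetal bovine serum, LIF, PD0325901 and CHIR99021. For each mark, 3 B6 and 3 D2 lines were biological replicates. The other libraries were technical replicates of 1 line per genotype, so their tests compare lines and their p-values measure the spread between libraries of a line. The B6 and D2 lines among them, B6 5-1 and D2 5-5, are also replicate 3 of B6 and replicate 2 of D2 among the separate lines. For H3K9me3 there were 3 such libraries of B6, 2 of B6-13D2, 2 of D2 and 3 of D2-13B6, and for H3K27ac 3 of each line. H3K27ac was precipitated with an abcam antibody in the separate lines and a Cell Signaling Technology antibody in the repeated libraries, so its levels are not compared between the series.

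Glo1 encodes glyoxalase 1, which with glutathione detoxifies methylglyoxal, a reactive by-product of glycolysis. Btbd9 encodes a BTB-domain protein, Dnah8 a dynein heavy chain of axonemes, and Glp1r the receptor for glucagon-like peptide 1. A stretch around Glo1 is known to be duplicated in DBA/2J and in some other inbred strains. H3K27ac marks active promoters and enhancers, whereas H3K9me3 marks heterochromatin and lies over repeats and silenced genes.

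The promoters of the genes the locus is read through are printed first, because the regions over the Glo1 and Dnah8 starts were among the strongest H3K27ac regions of the stretch described below. They are the 250 bases before the RefSeq start site in GRCm38.p6, written 5′ to 3′ on the gene's strand with CpG pairs in capitals. Glo1 lies at chr17:30612660-30612909 on the minus strand, Dnah8 at chr17:30626686-30626935 on the plus strand and Glp1r at chr17:30901617-30901866 on the plus strand.
Glo1: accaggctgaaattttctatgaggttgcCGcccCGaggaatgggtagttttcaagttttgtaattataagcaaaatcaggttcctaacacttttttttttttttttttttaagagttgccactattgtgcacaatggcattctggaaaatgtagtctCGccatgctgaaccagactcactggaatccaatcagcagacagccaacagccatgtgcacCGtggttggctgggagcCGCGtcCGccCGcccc
Dnah8: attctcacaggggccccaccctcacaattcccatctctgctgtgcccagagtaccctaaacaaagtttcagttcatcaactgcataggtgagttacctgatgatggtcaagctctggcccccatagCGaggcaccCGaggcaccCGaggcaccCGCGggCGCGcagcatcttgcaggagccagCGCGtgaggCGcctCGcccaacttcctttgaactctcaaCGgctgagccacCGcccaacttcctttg
Glp1r: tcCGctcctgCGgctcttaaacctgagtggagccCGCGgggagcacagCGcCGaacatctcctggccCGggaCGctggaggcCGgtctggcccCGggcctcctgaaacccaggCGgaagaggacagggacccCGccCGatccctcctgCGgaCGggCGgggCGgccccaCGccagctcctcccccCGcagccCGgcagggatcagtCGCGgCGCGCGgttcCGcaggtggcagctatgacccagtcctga
These windows hold 8 CpG pairs for Glo1, 13 for Dnah8 and 26 for Glp1r, against a median of 6 over 32851 promoters. The share of all promoters with at least as many was 43.0%, 31.54% and 9.59%. The motif GGGCGG, searched on both strands and overlapping CpG pairs, occurred 3 times for Glo1, 1 time for Dnah8 and 3 times for Glp1r, and 32.74% of promoters held it. CCAAT occurred 1 time for Glo1 and in 33.85% of promoters. TATAAA and TGACNNNGC occurred 0 times in these windows and in 12.37% and 10.16% of promoters. Btbd9 had no entry among the RefSeq promoters used.

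Counts over regions came to 1487862 to 2559262 per library for H3K9me3 and 15444270 to 18272793 for H3K27ac in the separate lines. In the repeated libraries they came to 1538145 to 2185977 and 8735674 to 11543469. The locus held 604 to 2021 H3K9me3 and 8726 to 16694 H3K27ac counts per library in the separate lines, and 826 to 1897 and 3817 to 7337 in the repeated libraries. Levels are given as CPM, that is counts divided by the library total and adjusted by the trimmed mean of M-values (TMM). Among the H3K27ac repeated libraries, each line had 1 pair with a chi-square per degree of freedom under 1 (0.9047 to 0.9669). Counts that differ by sampling noise alone give about 1. These 4 pairs were summed, so that n = 2 per line. The other pairs of B6, B6-13D2 and D2 came to 1.005 to 1.027, barely above that cut. The spread between the samples of these lines thus holds little beyond sampling noise. Replicate 1 of D2-13B6 stood apart from the other libraries of its line, with a chi-square per degree of freedom of 2.81 and 2.79 for H3K27ac and 2.46 and 2.47 for H3K9me3. Naive stem cell markers carried promoter H3K27ac of 53.9 to 344 CPM in the separate lines at the 6 of 8 genes with a region, and their call count there was 0. The 4 fibroblast and 3 primitive endoderm markers had 0 tested start regions there, and the 2 of 2 mesoderm and 1 of 2 neural markers with one were not called.

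The stretch of raised signal was placed from H3K27ac in the repeated D2 and B6 libraries, as the run of tested regions that best separated 2 medians of the log2 difference. It ran over chr17:30480083-30840260, 360.2 kb. It held 86 regions of the shared list and 19 of the H3K27ac list of separate lines, leaving 108 and 40 outside. All of Glo1 (chr17:30584936-30626871, minus strand, ENSMUSG00000024026.13) lay inside, as did 85.33% of Dnah8 (chr17:30624354-30877365, plus strand, ENSMUSG00000033826.10). Btbd9 (chr17:30215524-30576488, minus strand, ENSMUSG00000062202.14) was inside over 26.71% of its length, which includes its 5′ end. Glp1r (chr17:30901817-30940791, plus strand, ENSMUSG00000024027.8) lay outside, beyond the 3′ end of Dnah8. Other data placed the ends elsewhere. H3K27ac of the congenic lines gave chr17:30450974-30924144, 473.2 kb, which takes in the start of Glp1r, and H3K27ac of the separate lines gave chr17:30452801-30836739, 383.9 kb. The last tested region inside, chr17:30839745-30840260, differed by 1.77 and the first outside it, chr17:30873992-30875238, by 0.30 on the log2 scale. At the other end, chr17:30480083-30480779 differed by 0.88 and chr17:30478208-30478643 by −1.18. Counts at these edges were low. The B6 samples had 7 and 3 and the D2 samples 21 and 11 at chr17:30839745-30840260. At chr17:30478208-30478643 they had 24 and 8 against 11 and 2, so the ends are not sharply placed. Since this contrast placed the ends, its 36 of 77 tested regions called higher inside and 0 called lower, beside 14.7% and 13.4% of all regions, are a description only.

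**Figure D1:**
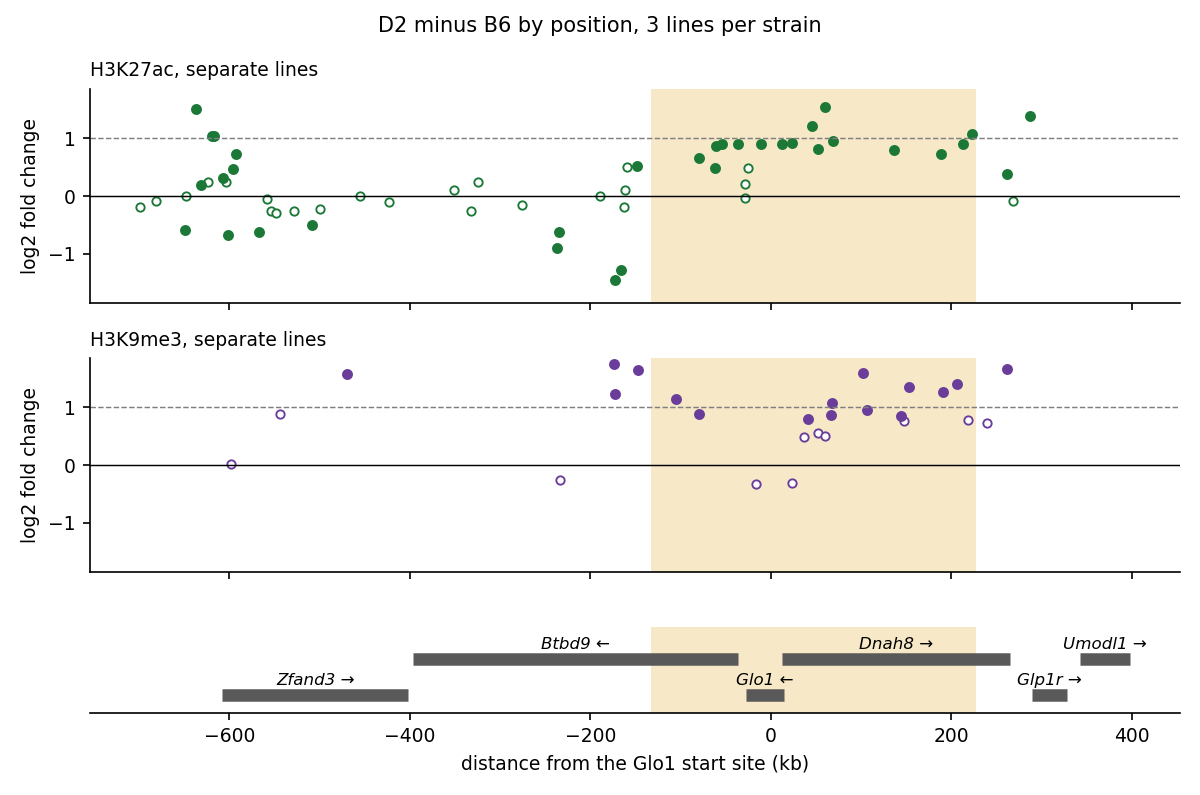
Log2 difference between D2 and B6 in the separate lines for H3K27ac (top) and H3K9me3 (bottom) against distance from the Glo1 start site in kb; each point is a tested region, filled where the adjusted p is under 0.05 and open where not. Shading marks the stretch placed from other libraries of 1 of these B6 and 1 of these D2 lines, and the dashed line is a 2-fold difference; H3K27ac points rise to near that line within the shading, whereas H3K9me3 points lie above 0 on both sides of its left end as well.

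H3K27ac over the stretch was 1.864-fold higher in the D2 than in the B6 separate lines. Summed over the 19 regions it was 328, 306 and 353 CPM in B6 and 569, 643 and 627 CPM in D2. Every D2 line lay above every B6 line. Outside the stretch the 40 regions summed to 252, 243 and 257 CPM in B6 and 270.4, 277 and 284 CPM in D2. The D2 lines were higher there too, without overlap, by a far smaller amount. That rise was not general, as the strains overlapped left of base 30450974. From there to the left end the sums were 10.2 ± 0.85 CPM in B6 and 14.6 ± 0.61 in D2. From the right end to base 30924144 they were 42.2 ± 2.9 and 57.4 ± 0.42 CPM (SD, n = 3). The left of these margins kept no direction in the repeated libraries. It summed to 11.3 ± 1.3 CPM in B6 and 9.69 ± 1.0 in D2, lower in D2 without overlap. The congenic lines had 6.65 ± 0.52 CPM in B6-13D2 and 10.8 ± 0.78 in D2-13B6 (SD, n = 2 each). Counts give the mark summed over all copies of a sequence in all cells, so more copies, more marked cells and more mark per copy cannot be told apart. The log2 ratio of counts inside to outside, which needs no scaling between libraries, was 0.389 ± 0.065 in B6 and 1.14 ± 0.069 in D2 (SD, n = 3 each). The difference was 0.75, with an exact permutation p of 0.1 (two-sided), the smallest that 3 against 3 can give. As a share of the locus counts, the stretch held 55.68% to 57.88% in B6 and 67.8% to 69.86% in D2, with Wilson 95% intervals no wider than from 54.64% to 56.72%.

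Of the 19 regions inside, all were tested, 16 were called higher in D2 and 0 lower, where 24.3% of all tested regions were called higher and 25.0% lower. Their median log2 difference was 0.90, with quartiles of 0.69 and 0.91, against −0.01 over all regions. Outside, 10 of 39 tested regions were called higher and 8 lower, with a median of −0.05. Of the regions in the body of Glo1, 2 of 3 were called higher. All 11 in the body of Dnah8 were, as were 5 of 5 in the part of Btbd9 inside. The region over the Dnah8 start lies in the bodies of both Glo1 and Dnah8 and counts in both. In the part of Btbd9 outside, 1 of 13 was called higher and 4 lower.

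**Figure D2:**
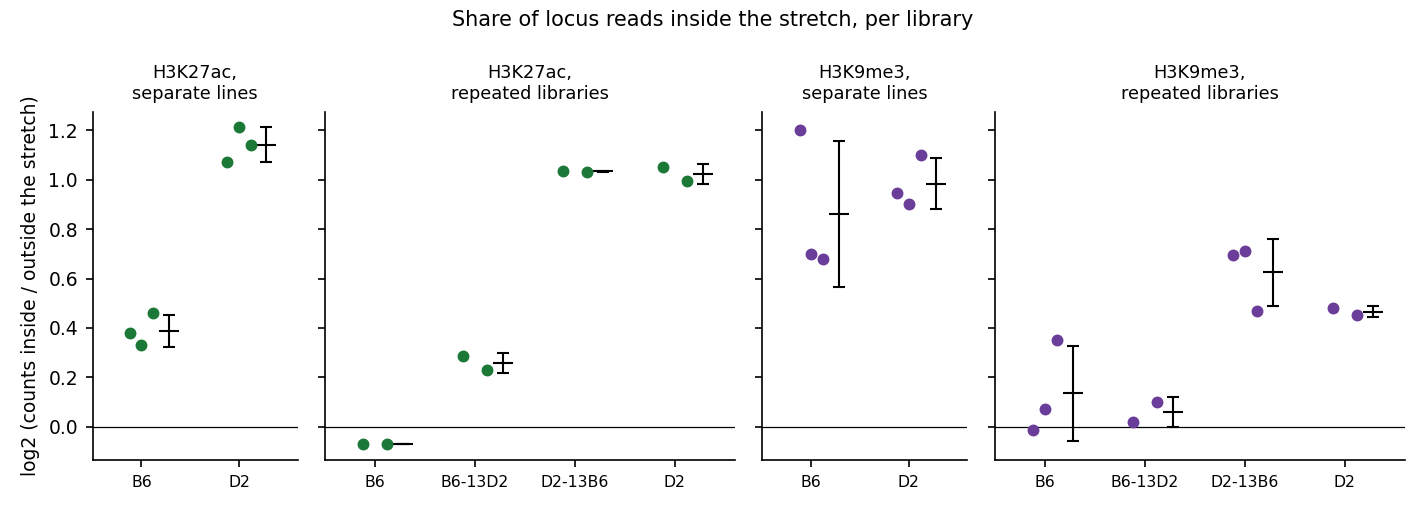
Log2 ratio of summed counts inside the stretch to those outside it in the locus, 1 point per sample (summed pairs count as 1), by mark and series, with the group mean as a dash and its SD as whiskers. For H3K27ac in the separate lines the B6 points lie from 0.33 to 0.46 and the D2 points from 1.07 to 1.21, whereas the H3K9me3 points of the separate lines overlap.

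The start region of Glo1 had the highest summed H3K27ac of the stretch in the separate lines, being also the longer of the 2 strongest. It, chr17:30588200-30614524, spans 26325 bp of the gene and its start, and measured 141, 125 and 151 CPM in B6 and 245, 272 and 264 CPM in D2. All D2 lines lay above all B6 lines. It rose by 0.90 ± 0.065 (log2, SE; adjusted p = 1.633e-17). The Dnah8 start region, chr17:30617832-30631077, also covers 1700097N02Rik and an alternative 5′ exon of Glo1. It measured 73.1, 65.5 and 73.4 CPM in B6 and 124, 136 and 134 CPM in D2, again without overlap, and rose by 0.90 ± 0.067 (adjusted p = 5.459e-17). At the Btbd9 start, chr17:30573725-30578786, which overlaps an antisense transcript, B6 lines had 17.4, 16.6 and 18.04 CPM and D2 lines 31.4, 33.0 and 32.6 CPM. This region, in the untranslated first exon, rose by 0.90 ± 0.083 (adjusted p = 1.645e-13). The 3 start regions thus shared nearly 1 log2 difference although their levels spanned a wide range. Per kb, H3K27ac in B6 was 5.29 ± 0.50 CPM at Glo1, 5.33 ± 0.34 at Dnah8 and 3.42 ± 0.15 at Btbd9 (SD, n = 3). The values of Glo1 and Dnah8 did not differ beyond their spread, and Btbd9 lay below both. In D2 the same regions reached 9.90 ± 0.54, 9.92 ± 0.47 and 6.39 ± 0.16 CPM per kb.

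Within the stretch, the differences were not uniform. Region chr17:30655484-30660937, over exons of Dnah8, measured 9.24, 9.51 and 10.1 CPM in B6 and 20.03, 23.2 and 23.7 CPM in D2 and rose by 1.22 ± 0.099 (adjusted p = 1.478e-15). Near the left end, chr17:30549110-30551210 in an intron of Btbd9 rose by only 0.49 ± 0.13 (adjusted p = 0.000976), from 6.39, 6.30 and 7.03 CPM to 8.86, 10.4 and 8.41 CPM. Near the right end, chr17:30834771-30836739 in an intron of Dnah8 rose by 1.07 ± 0.17 (adjusted p = 4.472e-07). The lowest log2 difference inside was −0.04 and the highest 1.55.

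Glp1r, outside the stretch by the main ends, showed the largest promoter difference of the member genes. Its start region, chr17:30897091-30903104, measured 8.96, 9.82 and 10.2 CPM in the B6 lines and 25.2, 25.9 and 24.3 CPM in the D2 lines. The D2 values were tightly grouped and all above the B6 values. The log2 difference was 1.38 ± 0.095 (adjusted p = 2.749e-18). Per kb this promoter was the weakest of the member genes in both strains, at 1.61 ± 0.11 in B6 and 4.18 ± 0.14 CPM in D2 (SD, n = 3). Between Dnah8 and Glp1r, chr17:30878083-30883904 over a noncoding transcript measured 29.5, 24.4 and 29.7 CPM in B6 and 24.9, 26.0 and 27.5 CPM in D2. The strains overlapped there, and the difference of −0.09 ± 0.084 did not pass the test (adjusted p = 0.3674). By the main ends, the rise at Glp1r was therefore separated from the stretch by a region where the strains overlapped. Ends fitted by least squares took in the Glp1r start. They were chr17:30480083-30924144 from the libraries that placed the main ends and chr17:30452801-30903104 from the separate lines. The place of Glp1r outside thus depended on how the ends were placed. The region over the last exons of Dnah8, chr17:30874003-30875248, differed by 0.38 (adjusted p = 0.02968), a call lost when any 1 of 5 of the 6 lines was left out or with DESeq2 (adjusted p up to 0.1375).

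Left of the stretch, the summed H3K27ac of the strains overlapped. The 35 regions before base 30450974 summed to 198 ± 3.1 CPM in B6 and 205 ± 7.1 CPM in D2 (SD, n = 3), with 7 of 34 tested called higher and 8 lower, shares near the 24.3% and 25.0% of all regions. The start of Zfand3, a zinc finger protein gene, rose by 0.30 ± 0.089 (adjusted p = 0.003755), from 18.4, 17.6 and 17.7 CPM to 20.2, 21.8 and 24.1 CPM. A region between Mdga1 and Zfand3, chr17:29973474-29977160, rose by 1.51 ± 0.12 (adjusted p = 5.28e-16), from 5.02, 6.80 and 6.96 CPM in B6 to 15.0, 19.4 and 18.6 CPM in D2. No region lay within 2000 bp of the start of Umodl1 in either list.

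H3K9me3 in the separate lines was also higher in D2 over the stretch, but not only there. Summed over the 86 regions it was 445, 448 and 464 CPM in B6 and 905, 822 and 745 CPM in D2, 1.822-fold. No B6 line reached a D2 line. Outside, the 108 regions summed to 193, 276 and 289 CPM in B6 and 469, 439 and 347 CPM in D2, also without overlap. The log2 ratio inside to outside was 0.860 ± 0.30 in B6 and 0.984 ± 0.10 in D2 (SD, n = 3 each). The difference of 0.12 lay within the spread of the B6 lines, and the exact permutation p was 0.6 (two-sided; the smallest possible is 0.1). Without replicate 1 of B6 it was 0.30 (exact permutation p = 0.1, the smallest that 2 against 3 can give), without replicate 2 of B6 0.04, without replicate 3 of B6 0.03 and without replicate 3 of D2 0.07 (exact permutation p = 1.0 each). To the left of base 30450974 the 84 regions summed to 175 ± 41 CPM in B6 and 269 ± 39 CPM in D2, where H3K27ac had differed little. Against the rest of chromosome 17 in place of the flanks, the difference was 0.87 (exact permutation p = 0.1).

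Most H3K9me3 regions were too shallow to test. Of 86 inside, 18 passed the filter on low counts, 11 were called higher in D2 and 0 lower, beside 17.3% and 17.4% of all tested regions. Of 108 outside, 9 passed, 5 were called higher and 0 lower. A region that passes the filter through D2 counts alone had to differ, so these counts describe the tested regions and not the members. With library totals in place of TMM, higher calls over all regions made up 61.5% in place of 49.8% of calls. The region with the most H3K9me3, chr17:30532298-30533951 in an intron of Btbd9, measured 48.6, 52.2 and 52.3 CPM in B6 and 116, 83.6 and 86.4 CPM in D2. It rose by 0.89 ± 0.18 (adjusted p = 9.387e-05). In Dnah8, chr17:30818594-30819630 over coding exons measured 14.8, 11.96 and 16.4 CPM in B6 and 37.0, 37.4 and 41.3 CPM in D2, and rose by 1.41 ± 0.25 (adjusted p = 1.229e-05). Outside the stretch, chr17:30873992-30875238 at the 3′ end of Dnah8 rose by 1.66 ± 0.27 (adjusted p = 3.365e-06), from 13.7, 10.9 and 9.23 CPM to 31.3, 34.9 and 41.3 CPM. In an intron of Zfand3, chr17:30142235-30142833 rose by 1.58 ± 0.27 (adjusted p = 8.122e-06). The start regions of Glo1, Btbd9, Dnah8 and Glp1r were not tested for this mark, having 1.06 to 15.0 CPM.

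**Figure D3:**
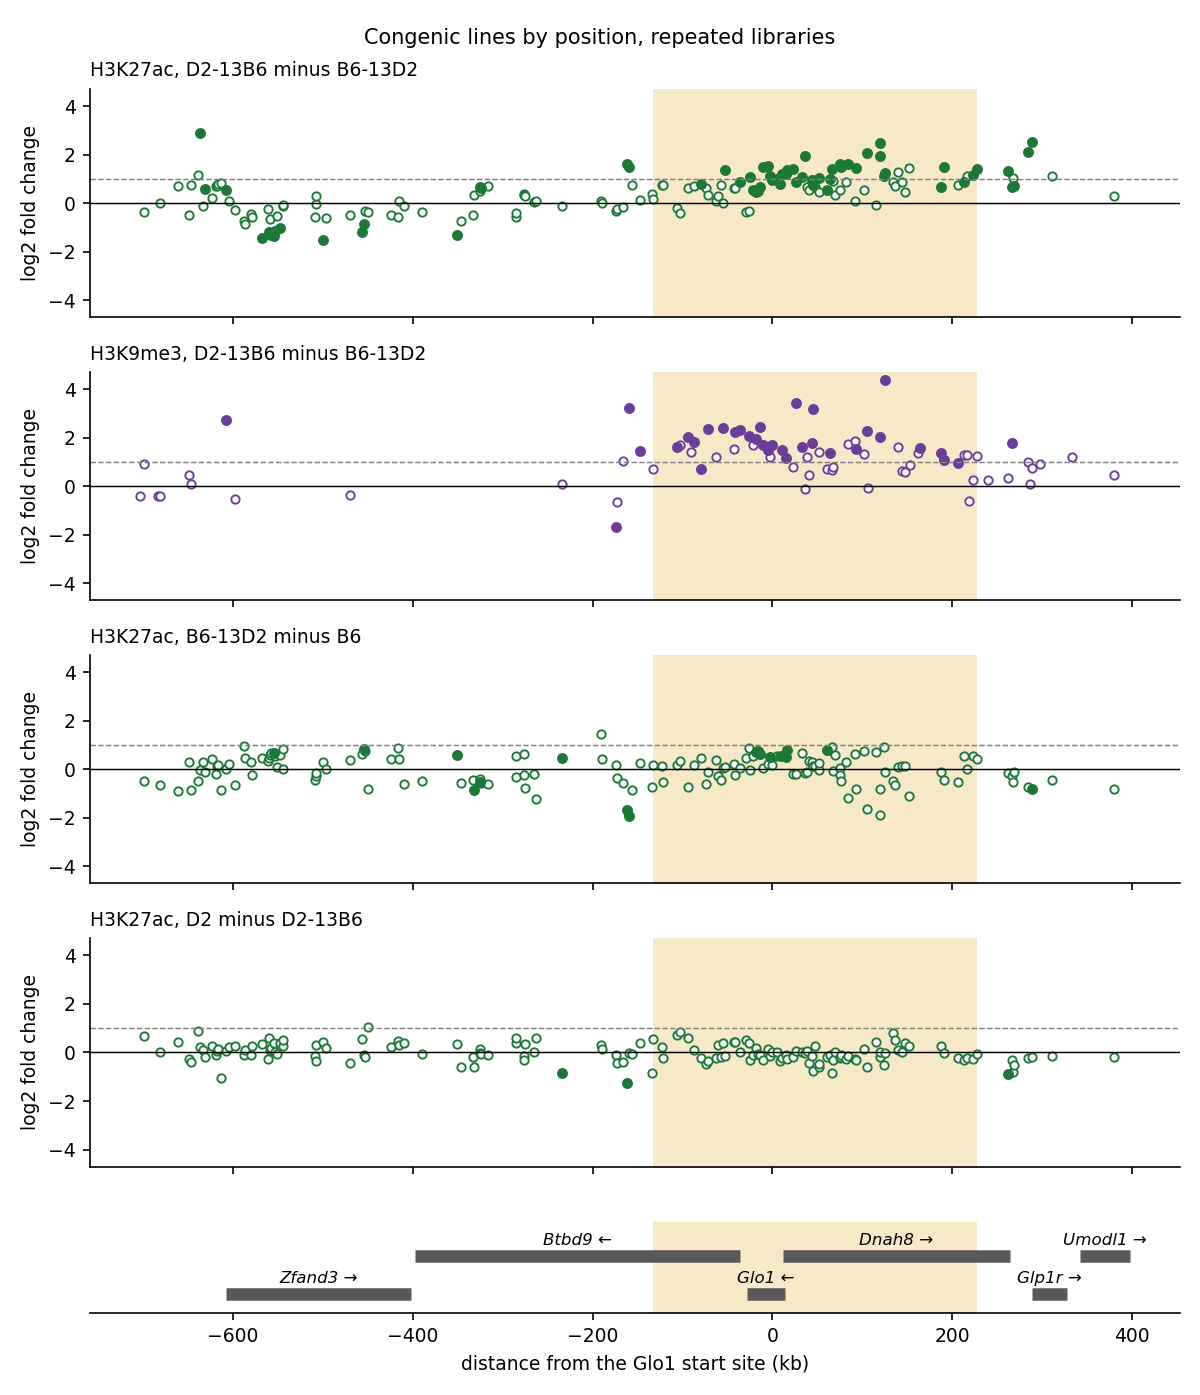
Log2 differences in the repeated libraries against distance from the Glo1 start site in kb. The first panel from the top shows D2-13B6 minus B6-13D2 for H3K27ac and the second the same for H3K9me3. The third and last panels show H3K27ac for B6-13D2 minus B6 and for D2 minus D2-13B6. Points, fill, shading and dashed line are as in the plot of the separate lines. Between D2-13B6 and B6-13D2, most points in the shading lie above 0 for both marks, with median values of 0.86 and 1.45.

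The congenic lines, which share no library with the placement of the ends, carried the same order of levels. H3K27ac over the stretch summed to 259 and 251 CPM in the B6-13D2 samples and 501 and 494 CPM in the D2-13B6 samples, 1.951-fold, beside 212.8 and 214 CPM and 244.5 and 242 CPM outside. The log2 ratio inside to outside was 0.257 ± 0.040 in B6-13D2 and 1.03 ± 0.0019 in D2-13B6 (SD, n = 2 each). The difference was 0.78, with an exact permutation p of 0.3333 (two-sided), the smallest that 2 against 2 can give. Replicate 1 of D2-13B6 did not decide it, as the difference without that library was also 0.78. Of 77 tested regions inside, 41 were called higher in D2-13B6 and 0 lower, where 16.8% and 13.7% of all regions were called higher and lower. Outside, 12 of 81 were called higher and 10 lower. The count inside was 33 without replicate 1 of D2-13B6, 20 without the summed pair of B6-13D2 and 16 with DESeq2.

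Among the start regions, Dnah8 carried the most H3K27ac in the repeated libraries. Region chr17:30627026-30627674, 90 bp past the start, measured 34.7 and 34.4 CPM in B6-13D2 and 75.7 and 82.6 CPM in D2-13B6. It rose by 1.20 ± 0.13 (adjusted p = 1.249e-10). At the Glo1 start, chr17:30611353-30613002, the values were 20.2 and 18.3 CPM in B6-13D2 and 35.6 and 38.1 CPM in D2-13B6, a rise of 0.94 ± 0.13 (adjusted p = 2.156e-07). The Btbd9 start, chr17:30575290-30577636, rose by 0.87 ± 0.16 (adjusted p = 2.537e-05), from 8.57 and 8.12 to 14.2 and 16.1 CPM. Lines did not overlap at any of these starts. In the Glo1 body, chr17:30607151-30608592 in an intron rose by 1.54 ± 0.14 (adjusted p = 3.46e-12), from 12.5 and 13.7 to 35.9 and 39.5 CPM. Glp1r, chr17:30900484-30902504, rose by 2.54 ± 0.23 (adjusted p = 2.642e-12), from 2.00 and 1.38 to 12.3 and 8.82 CPM. These calls were kept with every library left out in turn and with DESeq2.

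The parental lines gave 16.6 and 17.3 CPM in B6 and 38.9 and 35.6 CPM in D2 at Glo1, and 22.9 and 26.3 against 75.1 and 70.9 CPM at Dnah8. At Btbd9 they gave 7.47 and 8.74 against 15.9 and 14.5 CPM, and at Glp1r 2.76 and 3.81 against 9.11 and 8.86 CPM. All D2 samples were above all B6 samples. Other promoters were read in these libraries too. The naive markers with a tested region had a median log2 difference of 0.24, against −0.05 over all regions. Of these markers 3 of 7 were called higher and 0 lower, where 14.7% and 13.4% of all regions were. The fibroblast markers Col1a2 and Twist2, the 2 of 4 with a tested region, were both called higher. Their summed level was 5.15 to 6.37 CPM in B6, 11.3 to 12.5 in B6-13D2, 15.9 to 18.5 in D2 and 7.63 to 17.6 in D2-13B6, and their part in the result was not tested. With library totals in place of TMM, higher calls over all regions made up 40.3% in place of 52.3% of the calls between D2 and B6.

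**Figure D4:**
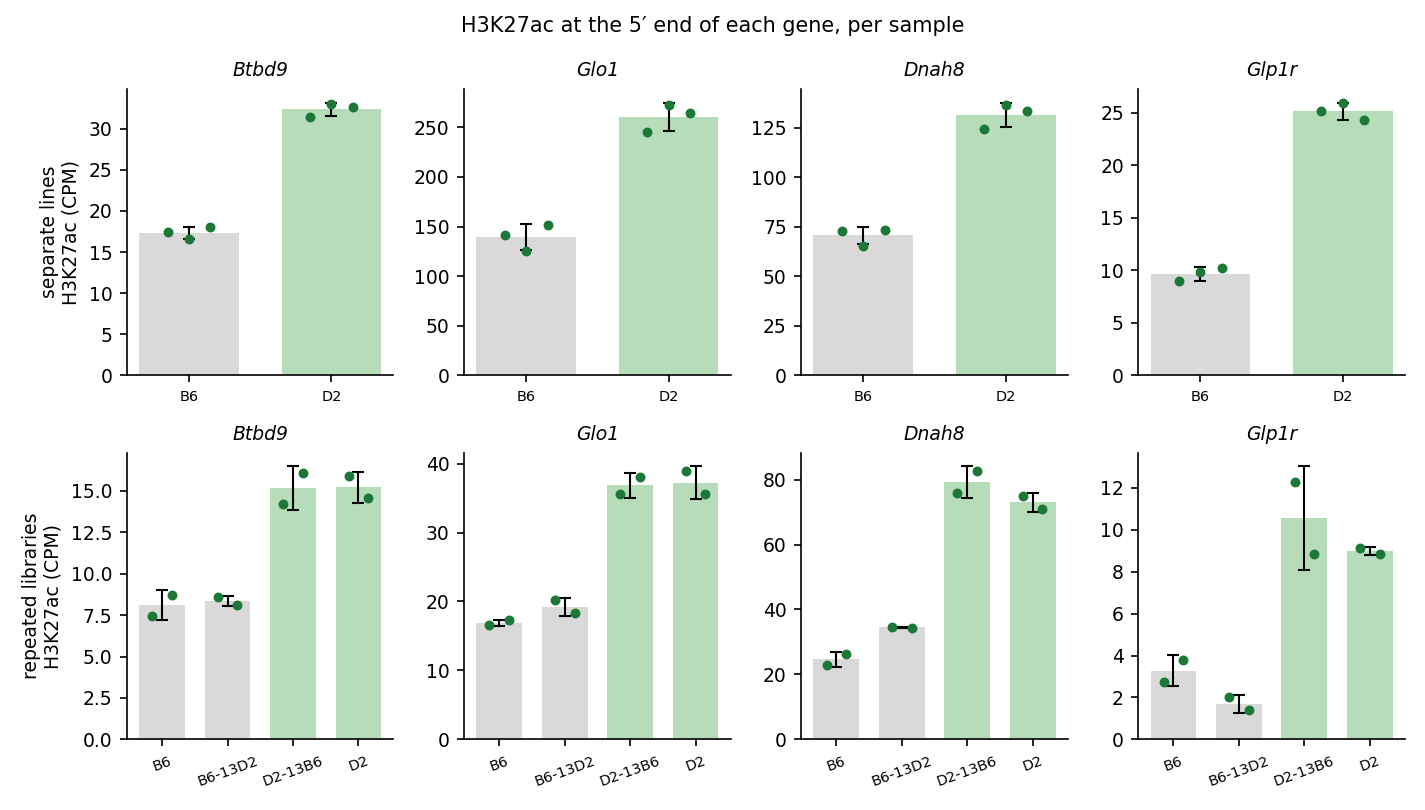
H3K27ac in CPM at the start regions of the 4 genes, 1 point per sample, for the separate lines and the repeated libraries, with group means as bars and SD as whiskers. At each start the D2 and D2-13B6 points lie above the B6 and B6-13D2 points of the same series, for Glo1 at 245 to 272 against 125 to 151 CPM in the separate lines.

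H3K9me3 separated the backgrounds in the repeated libraries. Over the stretch it summed to 341, 322 and 358 CPM in B6, 338 and 307 in B6-13D2, 593 and 624 in D2 and 668, 858 and 773 in D2-13B6. Every library with a D2 chromosome 17 lay above every library with a B6 one. The log2 ratio inside to outside ranged from −0.02 to 0.35 in the 5 libraries of B6 background and from 0.45 to 0.71 in the 5 of D2 background. The difference of 0.46 had an exact permutation p of 0.007937 (two-sided), the smallest that 5 against 5 can give. That p takes libraries as units, but each background holds only 2 lines, and 2 lines against 2 cannot give a p below 0.3333. The mean ratio was 0.135 in B6, 0.060 in B6-13D2, 0.466 in D2 and 0.625 in D2-13B6. The difference was 0.42 without replicate 1 of D2-13B6. Outside the stretch D2 and D2-13B6 were again higher, with sums of 441 ± 23 and 498 ± 76 CPM against 311 ± 32 in B6 and 310.2 ± 34 in B6-13D2 (SD, n = 2, 3, 3 and 2).

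Single H3K9me3 regions depended on which libraries were kept. Between the congenic lines, 29 of 58 tested regions inside were called higher in D2-13B6 and 0 lower, beside 8.6% and 11.8% of all regions. The count was 12 and 8 without replicates 1 and 2 of B6-13D2, 35, 10 and 14 without replicates 1, 2 and 3 of D2-13B6, and 2 with DESeq2. Between D2 and B6, 7 of 58 were called higher and 0 lower, beside 4.58% and 6.76%. That count was 1 without replicate 1 of B6 or replicate 2 of D2, 2 without replicate 2 of B6, 4 without replicate 1 of D2 or replicate 2 of B6-13D2, and 0 with DESeq2. Outside, 4 of 24 tested regions were called higher and 1 lower between the congenic lines, and 7 higher and 0 lower between the parental lines. Here too, a region that passed the filter through libraries of D2 background alone had to differ. These counts thus describe the tested regions and not the members. With library totals in place of TMM, higher calls between the congenic lines made up 54.7% in place of 42.2% of calls over all regions.

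At the start sites the H3K9me3 counts were low. The Glo1 start measured 2.91, 3.80 and 1.47 CPM in B6, 4.79 and 4.06 in B6-13D2, 2.69 and 8.53 in D2 and 9.89, 17.9 and 14.7 in D2-13B6. D2-13B6 was the only line whose libraries all lay above those of both B6-background lines. The parental difference of 1.07 did not pass the test (adjusted p = 0.2542) and was −0.05 without replicate 2 of D2. The difference between the congenic lines was 1.68 ± 0.43 (adjusted p = 0.001699), lost with DESeq2 or without replicate 2 of B6-13D2 (adjusted p up to 0.07538). At the Btbd9 start, B6-13D2 had 4.79 and 3.39 CPM and D2-13B6 17.1, 23.9 and 20.4 CPM, a rise of 2.31 ± 0.40 (adjusted p = 1.428e-06) that every alternative kept. The parental rise at Btbd9, 1.03 ± 0.34 (adjusted p = 0.03191), was lost under 8 of 15 alternatives. At the Dnah8 start the congenic rise was 1.17 ± 0.38 (adjusted p = 0.0171), lost under 5 of 15. The Glp1r start rose by 1.26 ± 0.32 between D2 and B6 (adjusted p = 0.002462), from 10.9, 12.2 and 8.10 to 29.5 and 20.9 CPM, but without replicate 1 of D2 the adjusted p was 0.1873. Between the congenic lines it differed by 0.73 (adjusted p = 0.06479). Outside the stretch, Glp1r was therefore called higher in D2 for both marks of this series, the H3K9me3 call resting on 1 library.

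H3K9me3 was also compared between lines that share the chromosome 17 background. Between B6-13D2 and B6, 0 of 58 tested regions inside were called in edgeR, with 2 higher and 3 lower at an unadjusted p under 0.05, and 1 of 24 outside was called higher, beside 1.23% higher and 0.458% lower over all regions. Between D2 and D2-13B6, 0 of 82 tested regions of the locus were called, with 3 higher and 6 lower at an unadjusted p under 0.05, beside 1.81% and 0.395%. DESeq2 called 0 there as well, and without replicate 1 of D2-13B6 the edgeR count was 1. Summed over the stretch, H3K9me3 was nonetheless 0.794-fold in D2 relative to D2-13B6, at 608 ± 22 against 766 ± 95 CPM, without overlap (SD, n = 2 and 3). The median log2 difference of the tested regions inside was −0.33, and 10 of 58 lay above 0. B6-13D2 and B6 overlapped, at 323 ± 22 and 340 ± 18 CPM (SD, n = 2 and 3). These comparisons share their B6 and D2 libraries with those above.

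H3K27ac was 1.252-fold higher over the stretch in B6-13D2 than in B6, at 259 and 251 against 199 and 209 CPM. The 2 lines did not overlap inside, and outside they measured 212.8 and 214 against 209 and 219 CPM. Inside, 8 of 77 tested regions were called higher and 0 lower, 5 in the Glo1 body and 3 in the Dnah8 body, beside 7.6% and 5.4% of all regions. Outside, 4 of 81 were called higher and 5 lower. In Glo1, chr17:30596183-30596948 over a coding exon measured 6.57 and 7.84 CPM in B6 and 12.9 and 10.6 in B6-13D2, and rose by 0.76 ± 0.17 (adjusted p = 0.001546). The Dnah8 start rose by 0.50 ± 0.13 (adjusted p = 0.007626). The Glo1 start differed by 0.20 and did not pass the test (adjusted p = 0.4127). The step from B6 to B6-13D2 exceeded that from D2-13B6 to D2 at 5 regions inside and fell short of it at 0 (1 and 1 outside), beside 3.93% and 1.37% of all regions by the interaction term. The total of 17 calls in the locus was 2 and 7 without the summed pair and replicate 3 of B6, 3 and 11 without the summed pair and replicate 2 of B6-13D2, and 26 and 27 without the samples of D2-13B6. With library totals in place of TMM, higher calls made up 38.5% in place of 58.5% over all regions. Between D2 and D2-13B6, 0 of 77 regions inside were called in edgeR, with 0 higher and 3 lower at an unadjusted p under 0.05, and 0 higher and 3 lower of 81 outside were called, beside 1.44% and 5.24%. That count of 3 was 0 without the summed pair of D2, 5 and 6 without the samples of D2-13B6, and 1 with DESeq2.

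A region in an intron of Btbd9, left of the stretch, carried the marks in opposite directions. H3K27ac at chr17:30438357-30440797 fell from 9.98, 8.25 and 9.12 CPM in the B6 separate lines to 2.31, 4.41 and 3.17 CPM in D2, a log2 difference of −1.45 ± 0.15 (adjusted p = 1.623e-11). H3K9me3 at chr17:30438730-30439417 rose from 7.39, 3.26 and 2.05 CPM to 15.6, 13.7 and 14.3 CPM, by 1.75 ± 0.42 (adjusted p = 0.0008662). Neither pair of groups overlapped. In the repeated libraries this H3K9me3 did not follow the chromosome 17 background. It was 2.91, 1.52 and 2.21 CPM in B6, 14.4 and 15.6 in B6-13D2, 10.7 and 10.1 in D2 and 2.70, 6.72 and 4.21 in D2-13B6. All libraries of the lines with D2 sequence in the chromosome 13 segment, D2 and B6-13D2, were above all libraries of the other lines. B6-13D2 rose over B6 by 2.70 ± 0.46 (adjusted p = 5.418e-06), and D2-13B6 was lower than B6-13D2 by −1.67 ± 0.40 (adjusted p = 0.0008157, lost with DESeq2). D2 against D2-13B6 differed by 1.15 and did not pass the test (adjusted p = 0.2344), and the interaction of segment and background was 1.55 (adjusted p = 0.5633). H3K27ac in the repeated libraries, at chr17:30439473-30440283, was 6.17 and 8.40 CPM in B6, 5.12 and 6.09 in B6-13D2, 3.33 and 3.64 in D2 and 3.56 and 5.49 in D2-13B6. It fell by 1.03 between B6 and D2 (adjusted p = 0.0004665), and the congenic lines, which overlapped, differed by −0.23 (adjusted p = 0.4804). The H3K9me3 region was the single H3K9me3 call of the locus between B6-13D2 and B6. Nearby, H3K27ac at chr17:30453014-30453664 was 2.86 and 3.14 CPM in B6 and 0.838 and 0.646 in B6-13D2, and fell by −1.93 ± 0.32 (adjusted p = 2.277e-05).

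**Figure D5:**
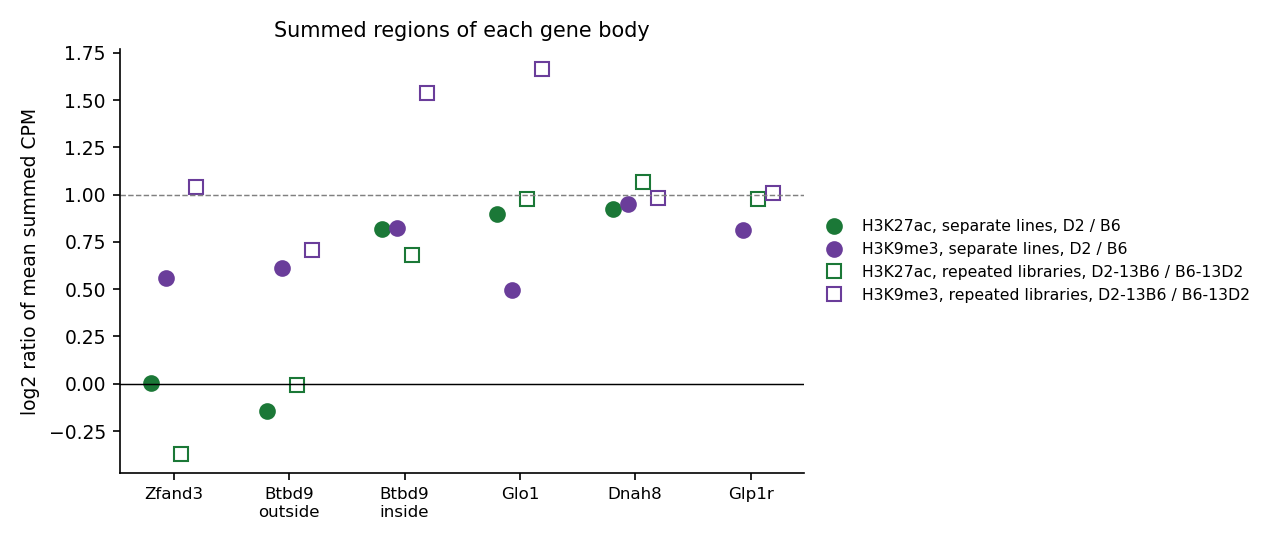
Log2 ratio of mean summed CPM over the regions of each gene body, by mark, for D2 against B6 in the separate lines (filled) and D2-13B6 against B6-13D2 in the repeated libraries (open); the dashed line is a 2-fold ratio. H3K27ac ratios are 1.602-fold to 2.098-fold for Btbd9 inside, Glo1 and Dnah8 and 0.774-fold to 1.004-fold for Zfand3 and Btbd9 outside, whereas H3K9me3 ratios lie above 0 for every gene. For H3K27ac in the separate lines, Glo1 and Dnah8 share the region over the Dnah8 start.

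Summed over gene bodies, H3K27ac in the separate lines was 212 ± 17 CPM in B6 and 394 ± 20 CPM in D2 for Glo1 (SD, n = 3), 1.864-fold. Dnah8 went from 139.7 ± 7.2 to 265 ± 17 CPM, 1.899-fold. These gene bodies overlap, and chr17:30617832-30631077, at 124, 136 and 134 CPM in D2, was summed in both. The Glo1 and Dnah8 values are therefore not independent. Btbd9 was split: its part inside went from 49.9 ± 4.2 to 87.9 ± 6.9 CPM, whereas its part outside went from 79.8 ± 1.8 to 72.2 ± 4.2 CPM. Both parts separated the strains without overlap, in opposite directions. Zfand3 summed to 75.0 ± 2.3 and 75.3 ± 1.3 CPM. For H3K9me3, Dnah8 went from 328 ± 20 to 633 ± 39 CPM, Btbd9 inside from 106 ± 20 to 187 ± 29 and Btbd9 outside from 85.7 ± 24 to 131 ± 29 CPM, the last with overlap. Over Glo1, H3K9me3 summed to 39.4 ± 3.3 CPM in B6 and 55.7 ± 16 CPM in D2, with overlap. In the repeated libraries, H3K9me3 over Glo1 was 32.0, 44.1 and 32.4 CPM in B6, 35.6 and 29.1 in B6-13D2, 47.4 and 82.2 in D2 and 63.9, 127 and 117 in D2-13B6. Every library of D2 background lay above every library of B6 background there. The means differed 1.792-fold between D2 and B6 and 3.175-fold between the congenic lines. Of 9 tested regions in Glo1, 7 were called higher between the congenic lines, beside 8.6% of all regions, and 0 between D2 and B6, beside 4.58%. A region that passed the filter through libraries of D2 background alone had to differ, so these counts describe the tested regions of Glo1 only.

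Other genes of methylglyoxal and glutathione metabolism were read at their start regions. In the separate lines, 7 of 10 such genes had a tested H3K27ac start region, and edgeR called 0 higher and 0 lower, beside 24.3% and 25.0% of all regions, with a median log2 difference of 0.12 against −0.01 over all regions. Hagh, which encodes glyoxalase 2, differed by 0.20 ± 0.092 (adjusted p = 0.06975) and Park7 by 0.15 ± 0.088 (adjusted p = 0.1614). In the repeated libraries 2 of 7 were called higher in D2 and 0 lower, beside 14.7% and 13.4% of all regions: Hagh by 0.48 ± 0.15 (adjusted p = 0.01249) and Ldhd, a lactate dehydrogenase, by 0.39 ± 0.14 (adjusted p = 0.03599). Across the 12 repeated H3K27ac libraries, the start regions outside the locus most like that of Glo1 were those of Gm30455 on chromosome 2 (Pearson r = 0.9948), Gm41231 on chromosome 14 (r = 0.9945) and Lnpep, an aminopeptidase gene on chromosome 17 (r = 0.994). They were the highest of 10967 promoter regions, and libraries of a line share their cells.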

How the data were processed

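The 34 libraries (4 tables, 12 groups) were analysed from the raw read counts per region that the authors deposited, per the file headers. Trimmomatic 0.39, HISAT2 2.2.1, MACS 1.4.2, bedtools 2.9.2, edgeR and the mm10 build are named in the submitters' processing notes, which give them no order or role. How regions were called and merged is not given in the sources used here, and 2 columns matched no sample and were not used. The listed start coordinates were taken to be 0-based and raised by 1, and genes came from GENCODE for GRCm38.

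Each table was fitted whole in edgeR 4.0.16 (R 4.3.3) by the quasi-likelihood test with TMM scaling, filterByExpr (minimum count 10, minimum total 15) and Benjamini-Hochberg adjustment over all tested regions, and called at an adjusted p under 0.05. All adjusted p-values are from this fit unless DESeq2 1.42.0 is named. Ratios and exact permutation tests were computed in Python 3.11.15 with SciPy 1.17.1. Libraries of a line in the repeated H3K27ac series were summed where the chi-square per degree of freedom was under 1 (0.9047 to 0.9669). Wilson 95% intervals cover counting error only, and reads without molecular identifiers are not independent molecules. The fits were also run on simulated counts with a single dispersion for all regions. The real libraries are less even, so that run does not gauge the error of the calls given here.

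Named regions were those at the 5′ end of protein-coding genes (within 2000 bp), the 3 of highest CPM inside the stretch, up to 3 called regions inside and 3 outside with the smallest adjusted p per comparison, and 2 on either side of each end. Lists of glyoxalase and glutathione genes and of cell type markers, and the start regions most like that of Glo1, were added. The members and lists were chosen with earlier results of these data known. Alternatives were DESeq2 and other scalings, other filters, other ends and outside sets, a replicate block, and each sample left out.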

Additional observations from a re-analysis of the deposited data

Results flagged for a closer look

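The difference in H3K27ac between B6-13D2 and B6 departed from that between D2 and D2-13B6, by an edgeR interaction term over the repeated libraries, at 5 named regions. All differences are log2, and n = 2 samples per line after summing pairs. At the Dnah8 start (chr17:30627026-30627674) the interaction was 0.622 (adjusted p = 0.0319), called under 6 of 14 alternatives, with adjusted p from 5.976e-05 to 0.217. Over a coding exon of Glo1 (chr17:30596183-30596948) it was 0.828 (adjusted p = 0.0227), called under 10 of 14. In an intron of Glo1 (chr17:30598132-30599208) it was 0.744 (adjusted p = 0.02246), called under 8 of 14. Levels in that intron were 10.3 and 10.3 CPM in B6, 15.5 and 16.9 in B6-13D2, 25.1 and 22.2 in D2 and 24.7 and 26.2 in D2-13B6.

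In an intron of Btbd9 left of the stretch (chr17:30453014-30453664) the interaction was −1.899 (adjusted p = 0.005037), called under 13 of 14 alternatives and lost without the summed pair of D2 (adjusted p = 0.1013). In another Btbd9 intron (chr17:30377640-30379298) it was 1.325 (adjusted p = 0.000257), called under 14 of 14. That region measured 8.47 and 10.1 CPM in B6, 12.7 and 12.8 in B6-13D2, 6.45 and 6.48 in D2 and 11.4 and 11.7 in D2-13B6, so the congenic lines were each above their background strain.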

How the results depend on the processing

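Of 754 values recomputed under other settings, beside leaving out samples, 678 kept their direction and side of the threshold or moved within their spread and 0 turned direction. With samples left out, the parental H3K9me3 difference at the Glo1 start turned to −0.0495 without replicate 2 of D2 and was 1.5451 without replicate 1. The log2 ratio of H3K9me3 inside to outside in the separate lines, 0.12, became 0.8683 against the rest of chromosome 17, 0.952 against other autosomes and 0.5483 as a median over regions. For H3K27ac in the separate lines it became 0.6367 with the ends of Glo1 and Dnah8, 0.8861 against other autosomes and 0.9095 as a median. Between the congenic lines it became 0.9481 with ends by least squares, 0.9218 and 0.6572. With ends from the congenic lines, chosen after seeing the data, the ratios were 0.2156, 0.7971 and, for repeated H3K9me3, 0.5404.

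The stretch measured 444.1 kb by least squares. Runs placed from the other contrasts measured 323.8, 383.9, 156.7, 383.9 and 473.2 kb (H3K9me3 and H3K27ac separate lines, repeated H3K9me3 parental and congenic, H3K27ac congenic). These runs were not all the same stretch. That of H3K9me3 in the separate lines, chr17:30142235-30466036, lay wholly left of the main ends and of Glo1. That of parental H3K9me3, chr17:30438730-30595412, held neither the Glo1 start site nor any of Dnah8. Calls inside for H3K9me3 separate lines numbered 18 without a filter and 7 with DESeq2. For parental H3K9me3 they numbered 11 with library totals, 3 with a mean of at least 20 counts and 0 with DESeq2. For congenic H3K9me3 they numbered 17 without a filter, 3 with that mean and 2 with DESeq2, and for congenic H3K27ac 24 and 16. In the locus, B6-13D2 against B6 gave 0 with that mean for H3K9me3 and 8 with DESeq2 for H3K27ac, and D2 against D2-13B6 gave 1 with DESeq2. The cause was not tested.

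Correlations of same-numbered samples ranged from −0.07 to 0.16, so no strong pairing by replicate number was seen. Counting noise lowers such correlations, so they cannot exclude a pairing. The highest, 0.1554 and 0.0901, were both of D2 with D2-13B6 for H3K9me3. With the replicate block, congenic H3K9me3 calls inside numbered 16 in place of 29, and no other count moved by over 1.5 times. Without 1 sample at a time, calls inside ranged from 1 to 9 for parental H3K9me3, 8 to 35 for congenic H3K9me3 and 20 to 40 for congenic H3K27ac. Calls in the locus ranged from 0 to 1 and 0 to 6 for D2 against D2-13B6 (H3K9me3, H3K27ac) and from 2 to 27 for B6-13D2 against B6 (H3K27ac). A lone sample was assumed to vary like the others. H3K9me3 depth left 68 of 86 regions inside untested in the separate lines.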

Other observations

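Downstream of the stretch, at the 3′ end of Dnah8 (chr17:30873992-30875238), D2-13B6 stood apart in H3K27ac. H3K9me3 there was called higher in D2 in the separate lines (log2 1.66) and in the repeated libraries (1.05, adjusted p = 0.009315, lost under 4 of 16 alternatives). H3K27ac there did not pass the test between D2 and B6 in the repeated libraries (0.30, adjusted p = 0.4452). It was 2.96 and 2.13 CPM in B6, 2.05 and 2.95 in B6-13D2, 3.33 and 3.18 in D2 and 7.12 and 5.22 in D2-13B6. D2-13B6 was above every other line, and the congenic lines differed by 1.33 (adjusted p = 2.223e-05). How far it stood from D2 depended on its replicate 1, which had stood apart from the other libraries of its line. D2 minus D2-13B6 was −0.69 without that replicate and −1.12 without the summed pair of D2-13B6. Summed over the 13 regions from the end of the stretch to base 30924144, H3K27ac was 2.325-fold higher in D2-13B6 than in B6-13D2 and 0.779-fold in B6-13D2 relative to B6. The sums were 43.2 ± 10.9 CPM in D2-13B6, 18.6 ± 1.4 in B6-13D2 and 23.8 ± 1.5 in B6 (SD, n = 2 each). The samples of D2-13B6 thus varied widely there.

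A region between Mdga1 and Zfand3, far left of the stretch, carried a larger relative H3K27ac difference in the repeated libraries than the start of any member gene. H3K27ac at chr17:29975337-29976429 was 1.91 and 1.79 CPM in B6, 1.77 and 1.94 in B6-13D2, 17.2 and 13.9 in D2 and 13.8 and 13.1 in D2-13B6. The lines fell into separate ranges by background, with a difference of 2.87 ± 0.21 (SE) between the congenic lines (edgeR adjusted p = 2.314e-15).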
